A study of Mus musculus with 10 samples.

Results

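The 10 genes described here are those of hepatic stellate cell activation and TGF-beta supply, taken by symbol from a table of 56748 genes. They are the ligand genes Tgfb1, Tgfb2 and Tgfb3, the activation markers Vim, Acta2 and Pdgfrb, the matrix crosslinking genes Lox and Loxl2, the protease inhibitor gene Timp1, and Lrat, a marker of the quiescent, vitamin A-storing stellate cell. Collagens were not among them. Gene expression was measured by RNA-seq of whole mouse liver, with 5 libraries genotyped ACSS2-flox (flox) and 5 genotyped ACSS2-HKO (HKO), which the series describes as a knockout in liver cells. Both groups had been fed high fat and high fructose (HFFD) for 4 months, and no group on a control diet stood beside them. The sources used here do not give the Cre driver, the deleted exons or the animals' age. The labels also do not state that each library came from its own animal, and the p-values measure the spread between these libraries.

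Hepatic stellate cells lie between hepatocytes and the sinusoidal endothelium, where LRAT esterifies retinol for storage in their lipid droplets. In an injured liver, PDGF acting through PDGFRB drives them to proliferate, and TGF-beta drives them to become contractile myofibroblasts that contain alpha smooth muscle actin (Acta2) and lay down matrix. TGF-beta is made in latent form by several liver cell types, macrophages among them, and signals through the receptors TGFBR1 and TGFBR2 to SMAD proteins. Vimentin (Vim) is an intermediate filament of mesenchymal cells, and of leukocytes and endothelium as well. LOX and LOXL2 crosslink collagen and elastin, and TIMP1 blocks the metalloproteinases that would degrade them.

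The start-site windows of Tgfb1 and Vim are shown because these were the members that changed. RefSeq windows on GRCm38.p6, running from 250 bases before to 50 bases after the annotated start, were found for 6 of the 10 members. Capitals mark the searched motifs, looked for on both strands: GGGCGG, bound by SP1, and TATAAA, the TATA box. Also searched were TGANTCA (AP-1), CAGACA (SMAD) and the CArG box motif, and none of these lay in the windows shown. The Tgfb1 window is chr7:25686752-25687051 on the plus strand, and the Vim window is chr2:13574061-13574360 on the plus strand.
Tgfb1: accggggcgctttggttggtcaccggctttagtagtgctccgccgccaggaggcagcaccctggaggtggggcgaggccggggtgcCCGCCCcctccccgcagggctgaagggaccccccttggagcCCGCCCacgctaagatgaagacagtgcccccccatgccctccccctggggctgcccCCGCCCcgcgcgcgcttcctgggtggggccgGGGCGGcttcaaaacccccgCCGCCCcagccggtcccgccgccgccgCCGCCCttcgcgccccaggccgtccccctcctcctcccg
Vim: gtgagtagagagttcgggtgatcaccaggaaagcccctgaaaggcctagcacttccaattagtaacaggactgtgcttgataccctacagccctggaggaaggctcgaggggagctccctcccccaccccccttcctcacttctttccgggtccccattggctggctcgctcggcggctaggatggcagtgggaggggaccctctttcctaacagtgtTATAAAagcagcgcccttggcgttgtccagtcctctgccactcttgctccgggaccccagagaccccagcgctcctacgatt

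The Tgfb1 window held 6 matches to the SP1 motif and no TATA box, with a GC content of 77.0%, while the median of all 32851 windows of this length was 52.7%. The Vim window had 1 TATA box, beginning 32 bases before the start, and no SP1 motif, with a GC content of 59.3%. Among all windows 35.7% held the SP1 motif and 13.6% the TATA box. The SMAD motif, found in 21.0% of all windows, occurred in those of Acta2 and Tgfb2. The AP-1 motif (7.81% of all windows) occurred in none of the 6 members' windows. These matches describe the letters only.

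Library totals ran from 15413648 to 19275358 counts. Levels are given as CPM, counts relative to the library total, after TMM scaling for composition. Acss2, the targeted gene, was read in every library, at 56.5 to 128.8 CPM in flox and 40.2 to 59.0 CPM in HKO, and the ranges overlapped. Its log2 fold change, HKO over flox, was -0.71 ± 0.21 (SE) and did not pass the test (edgeR quasi-likelihood adjusted p = 0.0858, with a log2 fold change of -0.80 and adjusted p = 0.0760 without flox replicate 5), so the counts check the genotype labels only weakly. The hepatocyte markers summed to between 113214 and 184982 CPM, with the lowest sum in flox replicate 5. That library had the highest level of most of the 10 genes, and their differences are given with and without it.

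HKO livers had less Tgfb1 and Vim RNA than flox livers, by 2.36-fold and 2.37-fold, and the other 8 members were not called. Tgfb1 fell from 7.19 ± 2.91 to 3.04 ± 0.794 CPM, and Vim from 28.8 ± 10.3 to 12.1 ± 3.75 CPM (mean ± SD, n = 5 per group). Acta2, the gene most used to mark myofibroblasts, had the same mean in both groups, and Lrat did not pass. A gene was called at a Benjamini-Hochberg adjusted p under 0.05 in the edgeR test over all 14068 genes that passed a filter on low counts. Of the 10 members 7 passed that filter, 2 of those were called, both lower, while 3.99% of all tested genes were called, 3.07% lower and 0.917% higher. The log2 fold change was below 0 for 6 of the 7, and for 49.0% of all tested genes. Each of the 7 had libraries above the filter's limit in both groups. Without flox replicate 5, Vim alone was called, while 2.54% of all tested genes were called, 1.82% lower and 0.716% higher. In whole tissue, fewer cells of a type and less RNA per cell cannot be told apart.

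**Figure D1:**
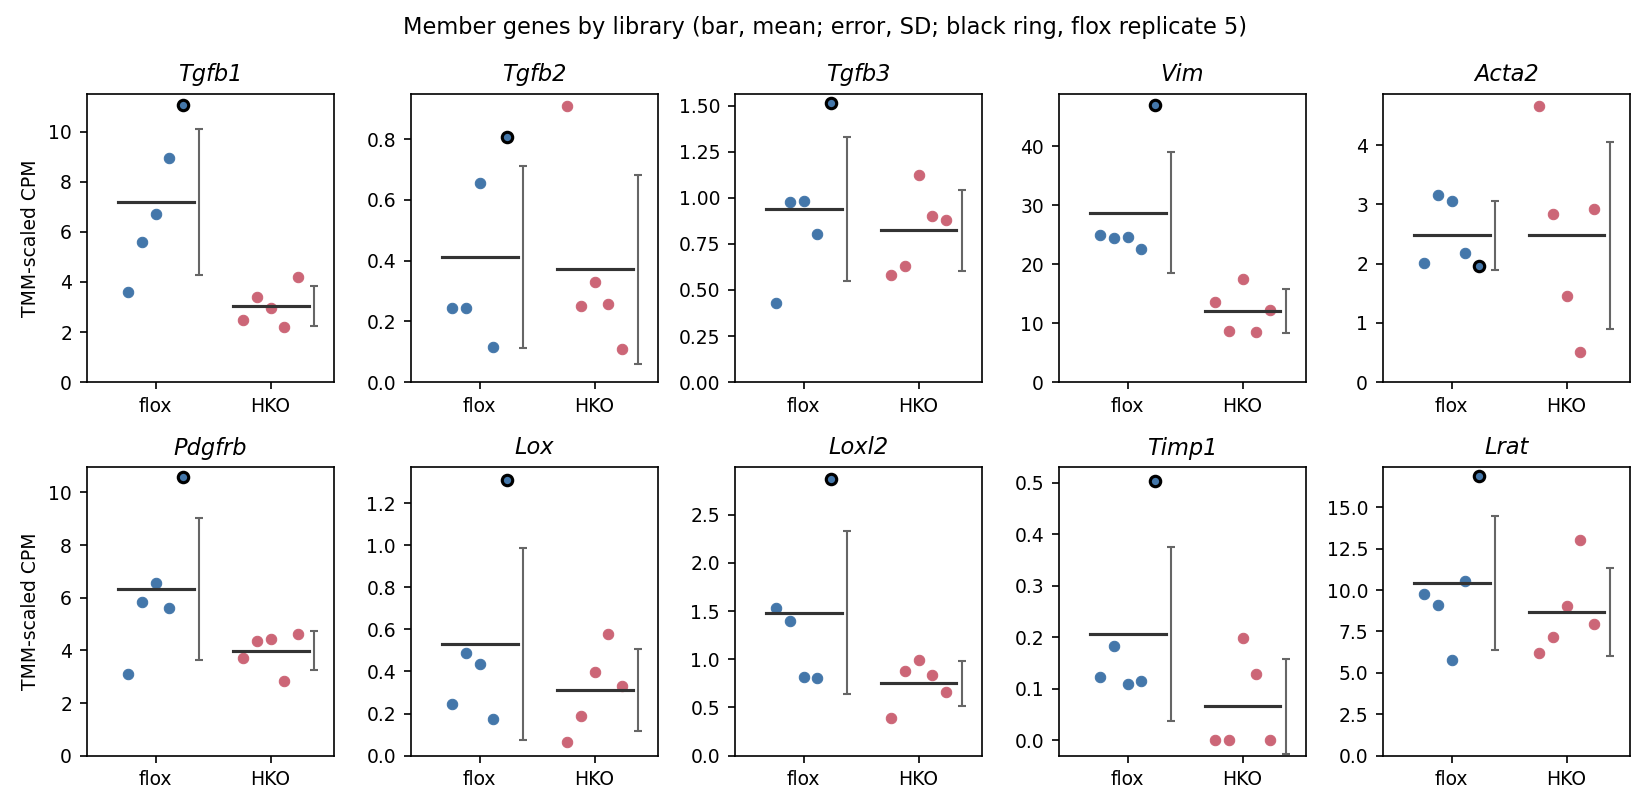
Level of each of the 10 genes in TMM-scaled CPM (vertical axes start at 0 or, where mean minus SD is negative, just below it), 1 point per library, flox in blue and HKO in red, with a bar at the mean, an error line of 1 SD and a black ring around flox replicate 5. All 5 HKO libraries lie below all 5 flox libraries for Vim, and flox replicate 5 is the highest library for 8 of the 10 genes.

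Among the ligand genes, Tgfb1, whose product is the main fibrogenic TGF-beta of liver, had the highest level. It stood at 3.61, 5.60, 6.72, 8.94 and 11.1 CPM in flox replicates 1 to 5, and at 2.46, 3.40, 2.97, 2.19 and 4.19 CPM in HKO replicates 1 to 5. The groups overlapped through a single pair, since HKO replicate 5 lay above flox replicate 1. The log2 fold change was -1.24 ± 0.30 (SE, 95% confidence interval -1.87 to -0.60; edgeR adjusted p = 0.0317), and permuting the group labels exactly (two-sided, on log2 CPM) gave p = 0.0159. Without flox replicate 5 the log2 fold change was -1.02 ± 0.28 and did not pass (edgeR adjusted p = 0.0864). It was not called either when flox replicate 4 or any of HKO replicates 1 to 4 was left out, at edgeR adjusted p = 0.0642, 0.0831, 0.0575, 0.0541 and 0.0826. The flox libraries held 650 counts of Tgfb1 in all and the HKO libraries 247. By the deposited coordinates, whose build is uncertain, the gene (ENSMUSG00000002603) spans 25386427 to 25404502 of chromosome 7, and no other gene of the table overlaps it.

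Tgfb3 was read near 1 CPM in both groups. It stood at 0.428, 0.974, 0.983, 0.802 and 1.51 CPM in flox and at 0.583, 0.630, 1.12, 0.900 and 0.882 CPM in HKO, in replicate order. The groups overlapped throughout, with the lowest and the highest library both in flox. Its log2 fold change was -0.20 ± 0.36 (95% confidence interval -0.97 to 0.58; edgeR adjusted p = 0.845), and 0.05 ± 0.36 without flox replicate 5. Ttll5, on the other strand, overlaps Tgfb3 over 5149 bases and had 877% as many counts, so without knowledge of strand the source of some Tgfb3 reads is uncertain. Tgfb2 did not pass the filter, with 38 counts in flox and 29 in HKO. It ranged from 0.115 to 0.806 CPM in flox and from 0.110 to 0.907 CPM in HKO, and its highest library was HKO replicate 1. At this depth no difference in Tgfb2 was detectable (edgeR without a filter, adjusted p = 0.936). The difference of mean log2 CPM, HKO minus flox, was -0.12, and 0.13 without flox replicate 5. The predicted gene Gm35546, on the other strand of Tgfb2, had 61.2% as many counts. Whether the 3 ligand genes differed from one another in their response was not tested.

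Of the activation markers, Vim separated the groups. It stood at 25.0, 24.5, 24.6, 22.6 and 47.0 CPM in flox and at 13.5, 8.76, 17.6, 8.48 and 12.2 CPM in HKO, in replicate order. Each of the 5 HKO libraries lay below each of the 5 flox libraries, and flox replicates 1 to 4 lay close together (24.2 ± 1.06 CPM) while flox replicate 5 was 1.94 times their mean. For 3.46% of the genes tested, all HKO libraries were likewise below all flox libraries. The log2 fold change was -1.25 ± 0.24 (95% confidence interval -1.77 to -0.72; edgeR adjusted p = 0.0148), and exact permutation (two-sided) gave p = 0.00794, which is the lowest value possible here. Without flox replicate 5 it was -0.99 ± 0.20 (edgeR adjusted p = 0.0245), and the call held in each of the 10 fits that left out 1 library (edgeR adjusted p from 0.00832 to 0.0376). Vim (ENSMUSG00000026728) spans 13578738 to 13587637 of chromosome 2 by the deposited coordinates, and was read by 2591 counts in flox and 968 in HKO.

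Acta2 did not follow Vim. It stood at 2.02, 3.17, 3.06, 2.18 and 1.96 CPM in flox and at 4.67, 2.84, 1.45, 0.514 and 2.92 CPM in HKO, in replicate order. The HKO libraries spread on both sides of flox, with the highest library (HKO replicate 1) and the lowest (HKO replicate 4) both in HKO. The means were 2.48 ± 0.586 and 2.48 ± 1.58 CPM, the log2 fold change was 0.00 ± 0.42 and its 95% confidence interval ran from -0.91 to 0.91 (edgeR adjusted p = 0.998), so changes of up to nearly 2-fold either way are within the error. The sign of this near-zero value changed with the scaling, being -0.09 with library totals alone, and was -0.07 ± 0.46 without flox replicate 5 (edgeR adjusted p = 0.974). In flox replicate 5, where 8 members peaked, Acta2 was 0.754 times the mean of the other flox libraries.

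Pdgfrb, the receptor through which PDGF drives stellate cells to divide, stood at 3.12, 5.85, 6.55, 5.61 and 10.6 CPM in flox and at 3.69, 4.35, 4.43, 2.83 and 4.63 CPM in HKO. Flox replicates 2 to 5 lay above every HKO library, but flox replicate 1 lay below 4 of the 5. The log2 fold change of -0.67 ± 0.28 (95% confidence interval -1.28 to -0.06) did not pass (edgeR adjusted p = 0.238; exact two-sided permutation p = 0.0873). Pdgfrb was among the 10.8% of tested genes that were lower at an unadjusted p under 0.05 in edgeR. Without flox replicate 5 it was -0.40 ± 0.25 (edgeR adjusted p = 0.546).

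**Figure D2:**
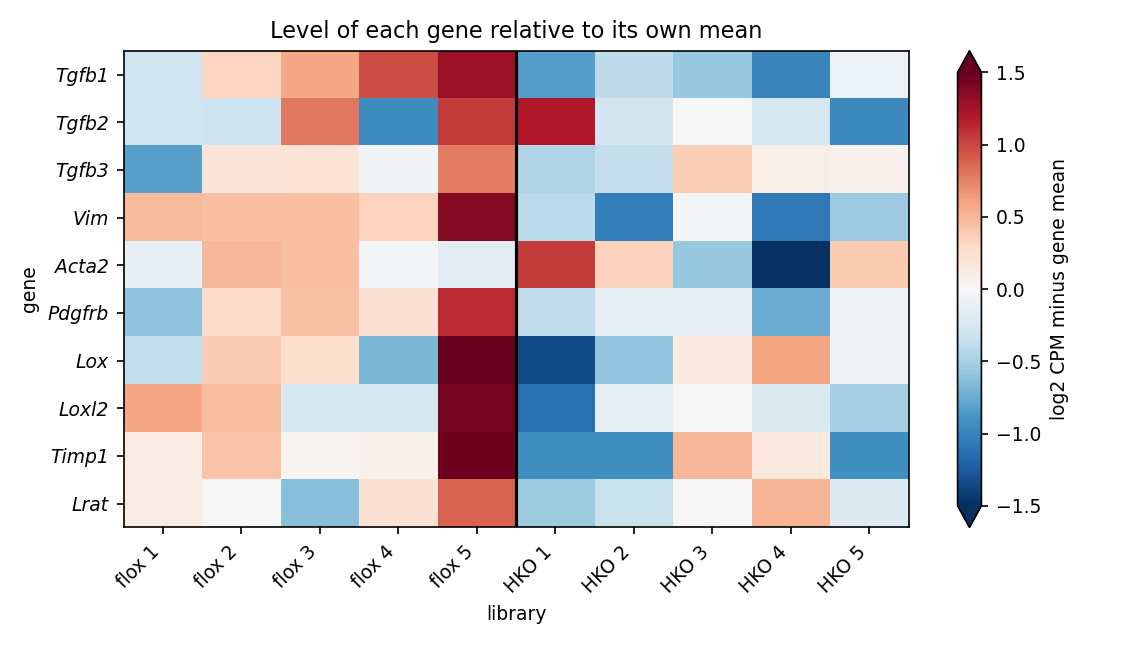
Level of each of the 10 genes (rows) in each library (columns) as log2 CPM minus the gene's mean over the 10 libraries, red above and blue below the mean, with a line between flox and HKO. The column of flox replicate 5 is red for 9 genes and pale for Acta2, and Vim is below its mean or near it in every HKO library.

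The crosslinking genes and Timp1 were read at low levels. Loxl2, which encodes a lysyl oxidase of collagen fibres, stood at 1.53, 1.40, 0.819, 0.802 and 2.87 CPM in flox and at 0.389, 0.882, 0.991, 0.835 and 0.661 CPM in HKO. HKO replicates 2, 3 and 4 lay above the 2 lowest flox libraries. The log2 fold change was -0.98 ± 0.41 (edgeR adjusted p = 0.228), and -0.59 ± 0.37 without flox replicate 5 (edgeR adjusted p = 0.551). Its transcript is identical to the predicted gene Gm21451 over 44.2% of its length, and reads from that stretch cannot be assigned with certainty. Lox, the founding member of the family, had 49 counts in flox, 26 of them in flox replicate 5, and 25 in HKO. It reached 1.31 CPM in flox replicate 5 and lay between 0.172 and 0.487 CPM in the other flox libraries and between 0.0648 and 0.578 CPM in HKO.

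Timp1, a gene that activated stellate cells and macrophages transcribe, was close to the limit of detection. It had 2, 3, 2, 2 and 10 counts in flox replicates 1 to 5 and 0, 0, 3, 2 and 0 counts in HKO replicates 1 to 5. A count of 0 allows up to 3 counts, worth 0.156 to 0.195 CPM before TMM scaling, and flox replicate 5 was the only library above 3 counts. Timp1 lies inside Syn1, a gene on the other strand with 258% as many counts. Neither Lox nor Timp1 passed the filter. Their differences of mean log2 CPM, HKO minus flox, were -0.50 and -0.84, and -0.15 and -0.58 without flox replicate 5. In edgeR without a filter the adjusted p was 0.602 for Lox and 0.498 for Timp1, so no difference was detectable at this depth.

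Lrat, the retinol esterifying enzyme by which quiescent stellate cells are known, stood at 9.79, 9.07, 5.79, 10.5 and 16.9 CPM in flox and at 6.22, 7.18, 9.05, 13.0 and 7.94 CPM in HKO. The groups overlapped widely, with HKO replicate 4 above 4 of the 5 flox libraries and flox replicate 3 the lowest library of all. The log2 fold change was -0.26 ± 0.27 (95% confidence interval -0.84 to 0.32; edgeR adjusted p = 0.689). Without flox replicate 5 it was -0.01 ± 0.25 (edgeR adjusted p = 0.993).

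**Figure D3:**
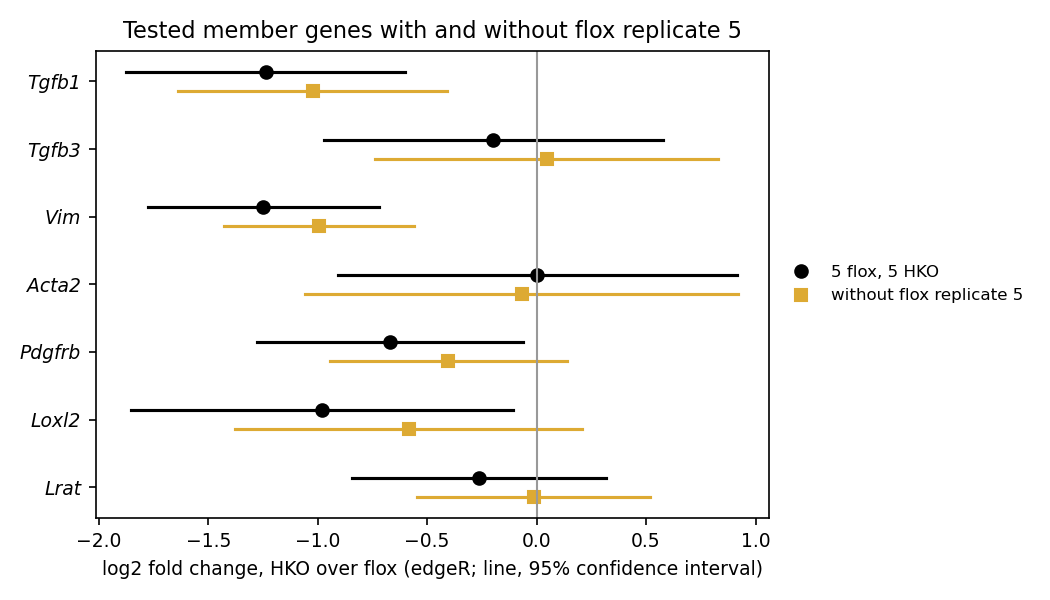
Log2 fold change (HKO over flox, horizontal axis) of the 7 tested members with its 95% confidence interval, black circles for all 10 libraries and yellow squares without flox replicate 5. The intervals of Tgfb1 and Vim lie below 0 both ways, and those of Pdgfrb and Loxl2 reach across 0 once flox replicate 5 is left out.

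Per kilobase of the gene length in the table, flox means were ordered from Vim (6.06 ± 2.16 CPM per kilobase) through Lrat (1.95 ± 0.755), Tgfb1 (1.43 ± 0.576), Pdgfrb (1.16 ± 0.493) and Acta2 (1.13 ± 0.267) to Tgfb3 (0.278 ± 0.115). Loxl2, Timp1, Lox and Tgfb2 followed at 0.275 ± 0.156, 0.233 ± 0.190, 0.111 ± 0.0952 and 0.0713 ± 0.0517 CPM per kilobase. Vim stood above Lrat, and Acta2 above Tgfb3, by more than the larger SD of the pair, while the other neighbours in this order differed by less. In HKO the order was Vim (2.56 ± 0.791 CPM per kilobase), Lrat (1.62 ± 0.495), Acta2 (1.13 ± 0.721), Pdgfrb (0.728 ± 0.134) and Tgfb1 (0.603 ± 0.157), where Lrat to Tgfb1 differed between neighbours by less than the larger SD.

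Flox replicate 5 was the library with the highest level for 8 of the 10 members, all but Acta2 and Tgfb2, and for 13.7% of all tested genes. Its level over the mean of the other flox libraries was 3.91 for Lox, 3.81 for Timp1, 2.56 for Tgfb2, 2.52 for Loxl2, 2.0 for Pdgfrb, 1.94 for Vim, 1.92 for Lrat, 1.90 for Tgfb3 and 1.78 for Tgfb1. The same library had the highest summed level of macrophage markers (1201 CPM, against at most 961 in the other flox libraries). It also had the highest sum of cholangiocyte markers (184 CPM, against at most 79.2 in the other flox libraries) and the lowest of hepatocyte markers. The macrophage and cholangiocyte lists share Spp1, so their sums are not fully independent. The part of these cell types in the members' levels was not tested.

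Few other genes of the TGF-beta pathway were called, as among all tested genes, where 3.07% fell and 0.917% rose. Of 19 tested genes of latency and activation, 1 fell and 0 rose, with a median log2 fold change of -0.35 (-0.11 without flox replicate 5), while the median of all tested genes was 0.01. The gene that fell was Itgb5, an integrin subunit that binds latent TGF-beta, with 75.7 ± 14.2 CPM in flox and 50.3 ± 6.80 CPM in HKO (log2 fold change -0.59 ± 0.15, edgeR adjusted p = 0.0440). It was not called when any of flox replicates 2, 4 and 5 or HKO replicates 2 to 5 was left out (edgeR adjusted p up to 0.122). With all 10 libraries it was not called with RLE size factors or the replicate number as a block (edgeR adjusted p = 0.0527 and 0.0936). In the latency and activation list, 17 of the 19 genes had a log2 fold change below 0, while 49.0% of all tested genes did. At an unadjusted p under 0.05 in edgeR, 3 of the 19 were lower, against 10.8% of all tested genes. DESeq2 called 2 of 20 genes of this list lower. Of 18 receptor and SMAD genes, 0 passed in the edgeR test (0 also at an unadjusted p under 0.05) and 0 in DESeq2, and the median was -0.01 (0.01 without flox replicate 5). By mean level the first were Smurf2, a ubiquitin ligase that limits the pathway (log2 fold change 0.16 ± 0.14), and Eng, an endothelial co-receptor (-0.16 ± 0.20). Tgfbr1 and Tgfbr2, the signalling receptors, and Smad3, which carries the signal to the nucleus, were named after their values were seen. Their log2 fold changes were 0.17, -0.32 and 0.06, and none passed (edgeR adjusted p = 0.756, 0.608 and 0.896).

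Of 24 tested genes known to respond to TGF-beta, 22 were not called, 1 fell (Itgb5, which stands in both lists) and 1 rose, where 3.07% of all tested genes fell and 0.917% rose, with a median log2 fold change of -0.20 (-0.07 without flox replicate 5). The one that rose was Id3, an inhibitor of basic helix-loop-helix factors that bone morphogenetic proteins also induce, at 21.7 ± 7.26 CPM in flox and 48.0 ± 19.2 CPM in HKO (log2 fold change 1.15 ± 0.28, edgeR adjusted p = 0.0332). It was not called when any of flox replicates 1, 3 and 4 or HKO replicates 3 to 5 was left out (edgeR adjusted p up to 0.0828). With all 10 libraries it was not called with library totals alone or the replicate number as a block (edgeR adjusted p = 0.0506 and 0.0534). At an unadjusted p under 0.05 in edgeR, 4 of the 24 response genes were lower and 2 were higher. DESeq2 called 2 of 26 lower and 2 higher. Without flox replicate 1, edgeR called 1 of 25 genes of this list lower and 1 higher. With all libraries and no filter, edgeR called 1 of 26 lower and 2 higher. Ccn2, a matricellular growth factor gene and well known TGF-beta target, was named after its values were seen. It had means of 5.94 CPM in flox and 5.24 CPM in HKO and did not pass (edgeR adjusted p = 0.859).

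**Figure D4:**
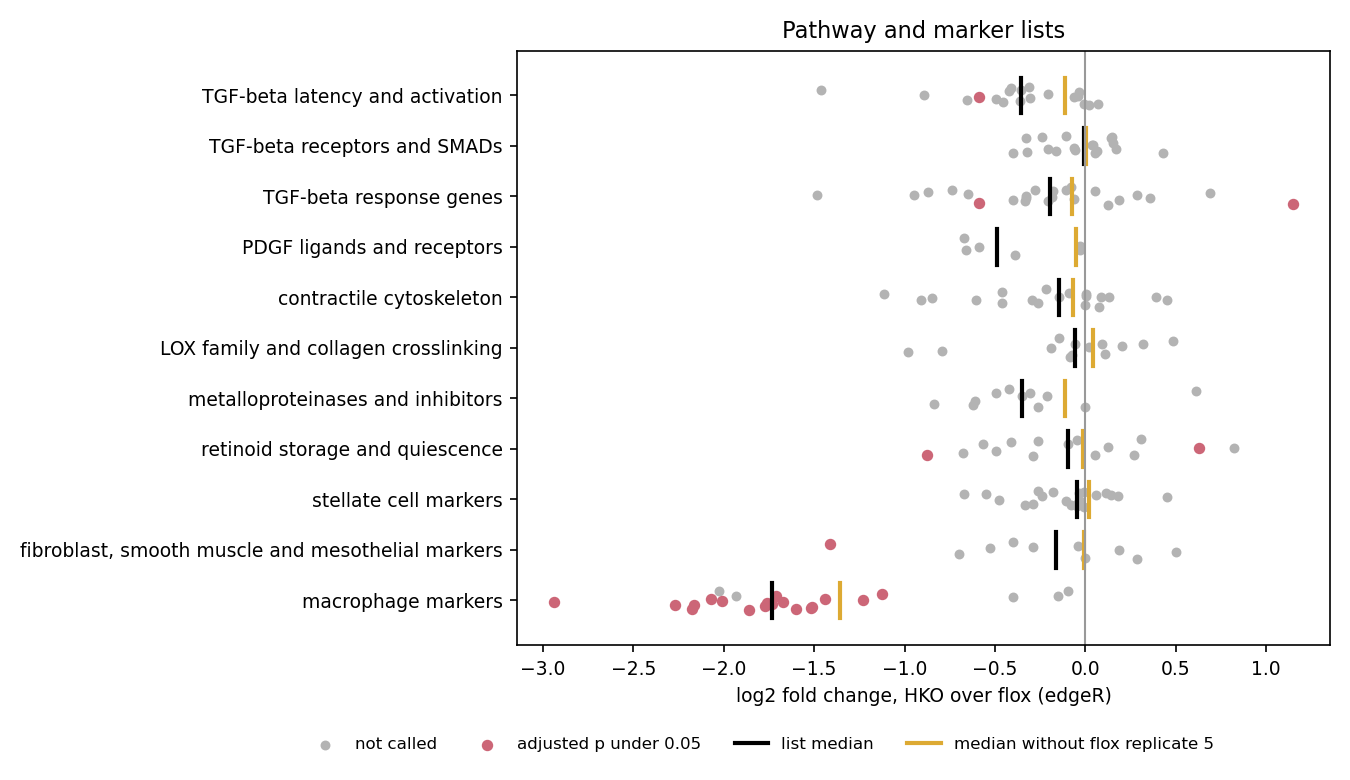
Log2 fold change (HKO over flox, horizontal axis) of every tested gene in 11 pathway and marker lists, red where the edgeR adjusted p was under 0.05 and grey otherwise, with list medians in black and, without flox replicate 5, in yellow. The macrophage list, with a median of -1.73, is the one whose genes are mostly called, while the stellate cell list lies around 0.

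Lists around the other members held no called genes in the edgeR test with all 10 libraries, where 3.99% of all tested genes were called. The log2 fold change was below 0 for 6 of 6 PDGF genes and 12 of 19 contractile genes. It was below 0 for 7 of 13 crosslinking genes, 10 of 11 metalloproteinase and inhibitor genes, and 49.0% of all tested genes. None of 6 PDGF ligand and receptor genes passed in edgeR (1, Pdgfrb, at an unadjusted p under 0.05) or DESeq2, and their median went from -0.49 to -0.05 without flox replicate 5. By mean level the first beside Pdgfrb was Pdgfc, a PDGF ligand gene (log2 fold change -0.59 ± 0.28, edgeR adjusted p = 0.306). None of 19 contractile and cytoskeletal genes (median -0.14, and -0.07 without flox replicate 5) passed in edgeR. At an unadjusted p under 0.05 in edgeR, 6 of the 19 were lower, against 10.8% of all tested genes. Cald1 and Actn4, an actin regulator and an actin crosslinker, had values of -0.14 ± 0.22 and -0.09 ± 0.15. DESeq2 and edgeR without a filter each called 2 genes of this list lower, and edgeR called 1 lower without flox replicate 1, with library totals alone and in the blocked fit. None of 13 crosslinking genes passed in edgeR (2 lower at an unadjusted p under 0.05) or DESeq2 (median -0.06, or 0.04 without flox replicate 5). Tgm2, a transglutaminase gene, was lower in mean (94.6 ± 43.6 and 54.6 ± 10.6 CPM) without passing (edgeR adjusted p = 0.136, or 0.0421 without flox replicate 4), and P4hb, a subunit of prolyl hydroxylase, had means of 1315 ± 73.4 and 1240.0 ± 98.8 CPM. None of 11 metalloproteinase and inhibitor genes passed in edgeR (1 lower at an unadjusted p under 0.05) or DESeq2, while edgeR without a filter called 1 of 18 lower (median -0.35, and -0.11 without flox replicate 5), with Mmp14 at -0.30 ± 0.19 and Mmp19 at -0.61 ± 0.22.

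Of 15 tested retinoid genes, the pathway of Lrat, 13 were not called, 1 fell and 1 rose (median -0.10, and -0.01 without flox replicate 5), where 3.99% of all tested genes were called. Rbp4, which carries retinol out of the liver and is made mainly by hepatocytes, was at 2359 ± 395 CPM in flox and rose to 3643 ± 209 CPM in HKO (log2 fold change 0.63 ± 0.16, edgeR adjusted p = 0.0383). Aldh1a1, which oxidises retinal to retinoic acid, had 2276 ± 805 CPM in flox and fell to 1238 ± 171 CPM in HKO (-0.88 ± 0.23, edgeR adjusted p = 0.0438). Both genes had groups that did not overlap. Neither was called when flox replicate 1, flox replicate 2 or any 1 of the 5 HKO libraries was left out, nor Rbp4 when flox replicate 5 was (edgeR adjusted p up to 0.112 for Aldh1a1 and 0.103 for Rbp4). With all 10 libraries neither was called with the replicate number as a block (edgeR adjusted p = 0.116 for Aldh1a1 and 0.109 for Rbp4), nor Rbp4 with library totals alone or without a filter (0.0569 and 0.0842).

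Markers of stellate cells themselves, Lrat and Pdgfrb included, did not separate the genotypes. Of 21 tested, 0 passed in the edgeR test (1 lower at an unadjusted p under 0.05) and 0 in DESeq2. The median was -0.05, or 0.02 without flox replicate 5. Among all tested genes 3.99% were called, and the log2 fold change was below 0 for 49.0% of them and for 16 of these 21 markers. By mean level the first were Steap4, a metalloreductase gene (log2 fold change -0.48 ± 0.50, or 0.02 without flox replicate 1), and Dcn, which encodes the matrix proteoglycan decorin (102 ± 15.8 and 106 ± 24.2 CPM). Their summed level ran from 446 to 789 CPM in flox and from 320 to 733 CPM in HKO. Of 10 tested markers of fibroblasts, smooth muscle and mesothelium, 1 fell, Gas6, a ligand of TAM receptor kinases, with 90.4 ± 26.0 CPM in flox and 34.0 ± 4.24 CPM in HKO (log2 fold change -1.41 ± 0.20, edgeR adjusted p = 0.00375). Its groups did not overlap, and the call held in each of the 10 fits that left out 1 library.

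Macrophage markers moved with Tgfb1 and Vim. Of 23 tested, 18 fell and 0 rose (median log2 fold change -1.73), and 14 fell without flox replicate 5 (median -1.36). Mpeg1, a pore-forming protein of phagocytes, went from 116.8 ± 35.6 to 36.6 ± 10.3 CPM, and Csf1r, the receptor for macrophage colony-stimulating factor, from 51.0 ± 23.1 to 15.04 ± 3.46 CPM. C1qb and Aif1, genes of complement and of a calcium-binding protein, had log2 fold changes of -1.71 ± 0.26 and -2.17 ± 0.34. The list's summed level was 461 to 1201 CPM in flox and 239 to 405 CPM in HKO, with no overlap, and every marker on it had counts. The part of macrophage RNA in the levels of Tgfb1 and Vim was not tested.

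Other cell types moved less, where 3.99% of all tested genes were called. Of 15 tested sinusoidal endothelial markers 2 fell (median -0.44, and -0.37 without flox replicate 5), Cdh5, a cadherin gene, from 13.8 ± 2.90 to 7.58 ± 1.72 CPM and Mrc1, a mannose receptor gene, from 32.1 ± 7.71 to 19.4 ± 4.04 CPM. Neither was called when any of flox replicates 4 and 5 or HKO replicates 1, 2 and 4 was left out (edgeR adjusted p up to 0.0722 for Cdh5 and 0.124 for Mrc1), nor Mrc1 when flox replicate 1 or HKO replicate 5 was. With all 10 libraries Mrc1 was not called with RLE size factors or the replicate number as a block (edgeR adjusted p = 0.0517 and 0.107). Of the 15 endothelial markers 14 had a log2 fold change below 0, against 49.0% of all tested genes. At an unadjusted p under 0.05 in edgeR, 4 of the 15 were lower, against 10.8% of all tested genes. The summed level of the 15 overlapped between flox (230 to 346 CPM) and HKO (166 to 353 CPM). Of 8 lymphocyte and plasma cell markers 1 fell, the light chain gene Igkc (-1.62 ± 0.40), which was not called when any of flox replicates 3 to 5 or HKO replicates 1, 2, 4 and 5 was left out (edgeR adjusted p up to 0.0950), nor with robust dispersion (0.0852). None of 6 cholangiocyte, 6 neutrophil and platelet and 16 hepatocyte markers passed in edgeR, with medians of -0.43, -0.69 and 0.25. The log2 fold change was below 0 for 6 of 8 lymphocyte and plasma cell, 4 of 6 cholangiocyte and 6 of 6 neutrophil and platelet markers. It was below 0 for 1 of 16 hepatocyte markers. At an unadjusted p under 0.05 in edgeR, 2 lymphocyte and plasma cell markers were lower and 0 cholangiocyte markers differed. At that limit 2 neutrophil and platelet markers were lower, and 1 hepatocyte marker was lower and 3 were higher. Among the genes of the highest mean level were Spp1 (log2 fold change -0.40), Csf3r and Itga2b (-0.83 and -0.07), and Alb and Trf (0.16 and -0.36). Csf3r, a neutrophil receptor gene, was called without HKO replicate 3 (edgeR adjusted p = 0.0163). Without flox replicate 5 these medians were 0.05, -0.59 and 0.13. In DESeq2, 0 cholangiocyte markers passed, and it called 1 neutrophil or platelet marker lower and 2 hepatocyte markers higher. The edgeR test called 1 neutrophil or platelet marker lower without a filter, and 1 hepatocyte marker higher without flox replicate 4. The parts of these lists in the members' levels were not tested.

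For each tested member the 3 genes with the most similar profile were named, by the root mean square difference of log2 CPM centred over the 10 libraries. Acta2 was closest to Myh11, the heavy chain of smooth muscle myosin, at a difference of 0.27 where the median over 11728 genes was 0.83. Myh11 stood at 1.90, 3.90, 3.06, 2.06 and 1.76 CPM in flox and at 4.67, 2.52, 1.45, 0.964 and 3.03 CPM in HKO, with the same highest and lowest library as Acta2. Kazald1 and Isoc2b followed at 0.38 and 0.40. Tgfb1 was closest to Ifi30, which encodes a lysosomal thiol reductase, at 0.24, then to Myo1g and Sla at 0.25 and 0.27 (median 0.79). Vim was closest to Rab8b, Pak1 and Tnfaip3, at 0.25, 0.26 and 0.26 (median 0.79). Pdgfrb was closest to Plaat3, Atpif1 and Col6a2, the last a collagen VI chain gene (0.20, 0.21 and 0.21, median 0.60). Loxl2 was closest to Tead1, Dock11 and Tmprss2 (0.22, 0.26 and 0.26), Lrat to Setd7, Chst14 and Ano6 (0.17, 0.18 and 0.22), and Tgfb3 to Smtn, Grap and Clcn6 (0.18, 0.19 and 0.23). None of the 7 tested members was among the nearest of another. These likenesses are descriptions over 10 libraries that include the difference between the groups.

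**Figure D5:**
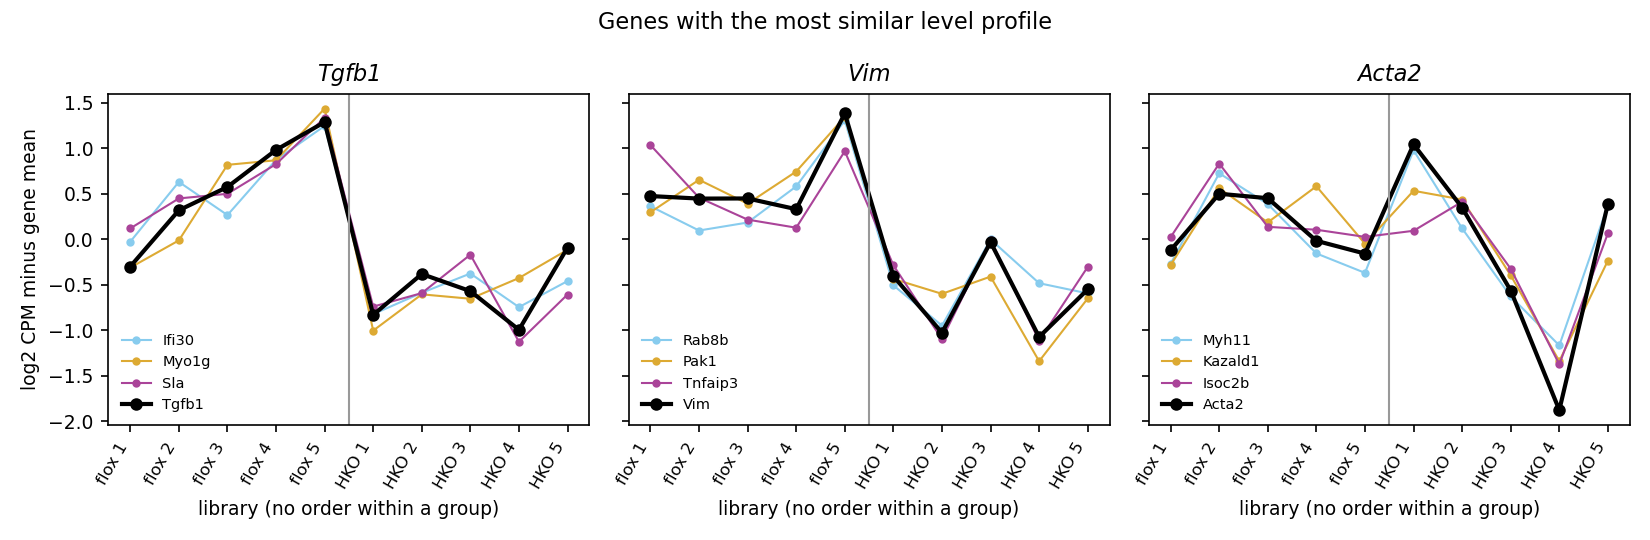
Log2 CPM minus the gene's mean (vertical axis) in each library (horizontal axis, no order within a group) for Tgfb1, Vim and Acta2 in black and the 3 genes nearest to each in colour. Tgfb1 and Vim step down between flox and HKO, while Acta2 and Myh11 are highest in HKO replicate 1 and lowest in HKO replicate 4.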

How the data were processed

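Total RNA from mouse liver was used for libraries, per the labels' protocols (VAHTS Universal V6). The authors deposited raw read counts per gene, whole numbers not divided by library size. Names in the submitters' processing notes are mm10 and DESeq2. The sources used here give no aligner, counter, annotation or strand setting. Coordinates are the deposited table's own and do not match GENCODE M21 on mm10, so their build is uncertain.

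HKO was compared with flox in edgeR 4.0.16 (R 4.3.3), with filterByExpr by group, TMM scaling and a two-sided quasi-likelihood F-test, with Benjamini-Hochberg adjustment over 14068 tested genes. SEs came from dividing the log2 fold change by the root of F. Log2 CPM used a prior count of 2, and exact permutation tests ran over all 252 assignments. The alternatives were RLE size factors, library totals alone, DESeq2 1.42.0, no filter, at least 1 CPM in 5 libraries, robust dispersion, the replicate number as a block, and each library left out. Copies were sought with BLAST 2.17.0 in GENCODE M21 transcripts, and members had 0 other genes at 95% identity over 50% of the transcript. The test was tested on simulated counts. Members and lists were chosen with earlier results of these data known. Named genes were the members, Acss2, up to 4 called genes per list by p or else the 2 of highest level, the 3 nearest profiles with at least 1 CPM, and overlapping genes; 1 gene under this rule is not reported here. The limit given for a count of 0 covers counting error only. The 95% confidence intervals came from the edgeR SEs, which include the spread between libraries. No pair of libraries within a group agreed within sampling noise (smallest chi-square per degree of freedom 24.6).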

Additional observations from a re-analysis of the deposited data

Results flagged for a closer look

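For 11 genes, 22 sets of 5 libraries were examined. In 4 of them, the gap between a library and its nearest neighbour exceeded Dixon's 95% critical share of the range. Chance gives about 1 in 20 for independent sets of normally distributed values. The sets share the same 10 libraries and some rest on few counts, so that rate is only a rough guide. Flox replicate 5 stood apart in 3 of the 4. Vim was at 47.0 CPM there (next highest flox library 25.0), Lox at 1.31 CPM (next 0.487) and Timp1 at 0.504 CPM (next 0.183). The fourth was Tgfb2 in HKO replicate 1, at 0.907 CPM (next 0.330), which rests on 14 counts.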

How the results depend on the processing

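Leaving out 1 library at a time gave 289 to 673 called genes against 561 with all libraries, 1 or 2 called members against 2, and 16 to 26 called genes over all lists against 28. Over the same fits the log2 fold change ran from -1.40 to -1.02 for Tgfb1, which was not called in 6 of 10, from -0.35 to 0.26 for Acta2, from -0.37 to 0.0469 for Tgfb3 and from -0.81 to -0.47 for Acss2, which was called only without flox replicate 3. Acta2 was below 0 with library totals alone (-0.0917), at least 1 CPM in 5 libraries (-0.00057) and the replicate block (-0.21), and it passed in none of these. Acss2 passed with library totals alone (-0.80), in DESeq2 (-0.70) and without a filter (-0.70). DESeq2 called 1112 genes, all but 1 of the 561 among them. Timp1, -0.84 as a difference of mean log2 CPM, was -1.60 in edgeR without a filter and -1.70 in DESeq2, where its adjusted p was NA. The cause of these changes was not tested. Library totals alone moved the median of all genes by -0.11 and made 85.6% of calls lower, against 77.0% with TMM. Tgfb1 and Vim were called under each alternative that kept all 10 libraries.

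Libraries with the same replicate number correlated at -0.09, -0.07, 0.24, 0.04 and -0.12 in their deviations from the group means, none being most like its own number, so the numbers were not taken to pair them. With the replicate number as a block, 448 genes were called, Tgfb1 and Vim among them (-1.18 and -1.24), and list calls went from 28 to 21, with Itgb5, Id3, Rbp4, Aldh1a1, Mrc1, C1qa, Cd163 and Marco no longer called and 1 contractile gene added. Tgfb2, Lox and Timp1 were tested only without a filter and in DESeq2, as the other fits left them out for low counts, and depth limits what can be said of them.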

Other observations

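Within a library, the ratio of 2 members does not depend on how the library was scaled. The level of Vim over that of Lrat was 2.56, 2.70, 4.25, 2.15 and 2.79 in flox replicates 1 to 5 and 2.18, 1.22, 1.94, 0.650 and 1.54 in HKO replicates 1 to 5. Flox replicate 5, the highest library for both genes, was within the range of the other flox libraries in this ratio. Only HKO replicate 1 reached above the lowest flox library. Tgfb1 over Lrat overlapped more, at 0.369, 0.617, 1.16, 0.848 and 0.657 in flox and 0.396, 0.474, 0.328, 0.167 and 0.528 in HKO.

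Acta2 over Vim was 0.0807, 0.129, 0.124, 0.0962 and 0.0418 in flox and 0.344, 0.324, 0.0827, 0.0606 and 0.239 in HKO. HKO replicates 1, 2 and 5 lay above every flox library, and HKO replicates 3 and 4 within the flox range. These ratios were chosen after the values were seen and were not tested.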
